A study of Homo sapiens with 12 samples.

Results

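The transcription factor NRF2 and a group of antioxidant genes were followed through an RNA-seq experiment on LNCaP cells, a human prostate cancer cell line that responds to androgen. The group was a list of gene symbols and had 10 members of the 34643 genes in the table: NFE2L2, which encodes NRF2, its inhibitor KEAP1, and the enzymes NQO1, HMOX1, GCLC, GCLM, TXNRD1, SRXN1, GSR and PRDX1. The rule is a list of names that uses no measured value, but the list was drawn up with earlier results of these data known. All 10 passed the filter on low counts that left 15419 genes for testing.

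NRF2 is held in the cytoplasm by KEAP1, which hands it to a ubiquitin ligase for breakdown. When oxidants or electrophiles modify KEAP1, NRF2 escapes, enters the nucleus, pairs with a small MAF protein and binds antioxidant response elements in its target genes. The targets make glutathione, keep glutathione and thioredoxin reduced, repair peroxiredoxins and detoxify quinones and heme. Because NRF2 is controlled mainly as a protein, the level of its own mRNA is not a measure of its activity.

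There were 12 libraries in 4 groups of 3. All cells carried a lentiviral short hairpin RNA expressed from the U6 promoter and were selected with puromycin: shScramble cells carried a scrambled control hairpin, and shTMEFF2 cells carried a hairpin against TMEFF2, a transmembrane protein of prostate and brain. All were kept in hormone-depleted, charcoal-stripped serum for 24 h and then received 10 nM dihydrotestosterone, the main prostate androgen (DHT+), or ethanol vehicle (DHT-) for 24 h. The 3 repeats of a group were separate treatments and RNA extractions, but they came from 2 transductions and the labels do not say which repeat came from which, so p-values measure the spread between repeats. Hairpins had been present for 17 days per the labels, the sources used here do not say which TMEFF2 hairpin was sequenced, and an effect of TMEFF2 cannot be told apart from another effect of the hairpin.

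Libraries held 19450866 to 22612046 counts (median 21194622). Levels are normalised counts scaled to the library total (CPM), with TMM factors as a correction for library composition. Tests were edgeR's quasi-likelihood test, with p-values adjusted by Benjamini-Hochberg over all 15419 genes. To be called, a gene had to reach both a 1.5-fold difference and an adjusted p no higher than 0.05. How far the DHT response in shTMEFF2 departed from that in shScramble was tested by itself and called on the adjusted p alone.

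TMEFF2 mRNA, the target of the hairpin, was 73.8 to 103.2 CPM in shScramble DHT- and 39.3 to 81.7 CPM in shTMEFF2 DHT-. With DHT it was 116.9 to 173.2 and 90.0 to 142.0 CPM. The groups overlapped both times, and neither log2 difference, -0.43 (SE 0.25, adjusted p = 0.503) and -0.41 (SE 0.25, adjusted p = 0.304), passed edgeR's test. FKBP5, a chaperone gene switched on by the androgen receptor, went from a mean of 63.4 to 660.5 CPM with DHT in shScramble and from 60.6 to 112.0 CPM in shTMEFF2, and KLK3, which encodes PSA, from 1923.5 to 7490.1 and from 356.0 to 1948.0 CPM. All 9 luminal prostate markers were detected in every library, but their summed level differed by group, at 6828.5 to 7090.3 CPM in shScramble DHT- and 14341.6 to 15991.8 CPM in shScramble DHT+. The sum in shTMEFF2 was 4357.2 to 4947.0 CPM without and 5334.9 to 6818.3 CPM with DHT. The summed level of 15 markers of stromal, endothelial, immune and basal cells was 38.8 to 65.1 CPM. It was lowest in shScramble DHT+ (38.8 to 40.8 CPM) and highest in shTMEFF2 DHT- (58.2 to 65.1 CPM). Of these markers, COL1A1 was at 11.9 to 30.4 CPM over the 12 libraries and VWF at 11.8 to 28.3 CPM. PTPRC (3.17 to 7.75 CPM) and CD68 (3.16 to 8.82 CPM) were also found in every library. The basal marker KRT5 was at 0 in all 12 libraries, and CDH5 and CD3E were at no more than 3 counts. The part of these markers in the results was not tested. In bulk RNA, fewer cells with a transcript and less of it per cell cannot be told apart.

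RefSeq promoters (GRCh38.p14, 250 bases before to 50 after the transcription start) were at hand for 7 of the 10 genes, all but HMOX1, GSR and PRDX1. They were searched on both strands for TGACNNNGC, the core letters of the antioxidant response element, and for the palindrome bound by the androgen receptor, AGAACA, NNN and TGTTCT in a row. The antioxidant letters were in the promoters of GCLM and TXNRD1, 2 of 7, against 13.3% of all 35116 promoters. Only the first promoter listed for each of the 7 genes was searched, and letters outside the window were not. The androgen letters were in none of the 7, and in 1 of the 35116 promoters. The stretches from 150 bases before the start to 10 from it are shown because they hold the letters NRF2 reads, which are in capitals. GCLM, on the minus strand at chr1:93909421-93909580, had 1 match, on the strand opposite to the gene, 34 bases before the start. TXNRD1, on the plus strand at chr12:104215629-104215788, had 2, on the strand of the gene 99 bases and on the opposite strand 8 bases before the start.
GCLM: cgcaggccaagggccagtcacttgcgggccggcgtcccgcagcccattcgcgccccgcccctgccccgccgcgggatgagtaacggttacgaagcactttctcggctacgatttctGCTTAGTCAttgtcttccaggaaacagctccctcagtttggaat
TXNRD1: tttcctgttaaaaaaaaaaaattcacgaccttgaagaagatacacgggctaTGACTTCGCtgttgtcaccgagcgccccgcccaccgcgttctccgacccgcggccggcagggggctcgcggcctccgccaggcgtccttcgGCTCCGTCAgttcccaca
A match of letters is a description and not a measured binding site. In the main edgeR fit neither GCLM nor TXNRD1 passed the test in any comparison. GCLM with DHT in shScramble passed in 3 of 21 alternative fits, and TXNRD1 between the lines with DHT in 4 of 21.

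The 10 genes differed widely in level, from a peroxiredoxin among the most abundant mRNAs of the cell to a heme oxygenase at a low level. Per kilobase of the canonical transcript, PRDX1 was highest, with a mean of 644.2 CPM per kb over the 12 libraries, and TXNRD1 followed with 122.7 CPM per kb. Neither overlapped with any other member across libraries. GSR (70.7 CPM per kb), SRXN1 (50.6), NQO1 (41.7), KEAP1 (33.3) and NFE2L2 (29.0) came next, and each overlapped with its neighbour in this order. The subunits of glutamate-cysteine ligase, GCLC and GCLM, were alike at 10.1 and 10.0 CPM per kb, and HMOX1 was lowest at 4.13 CPM per kb (2.89 to 6.21 over libraries). The highest library exceeded the lowest by a factor of 2.15 for HMOX1, 2.00 for GSR and 1.82 for NQO1, and by 1.17 for TXNRD1, which varied least.

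**Figure D1:**
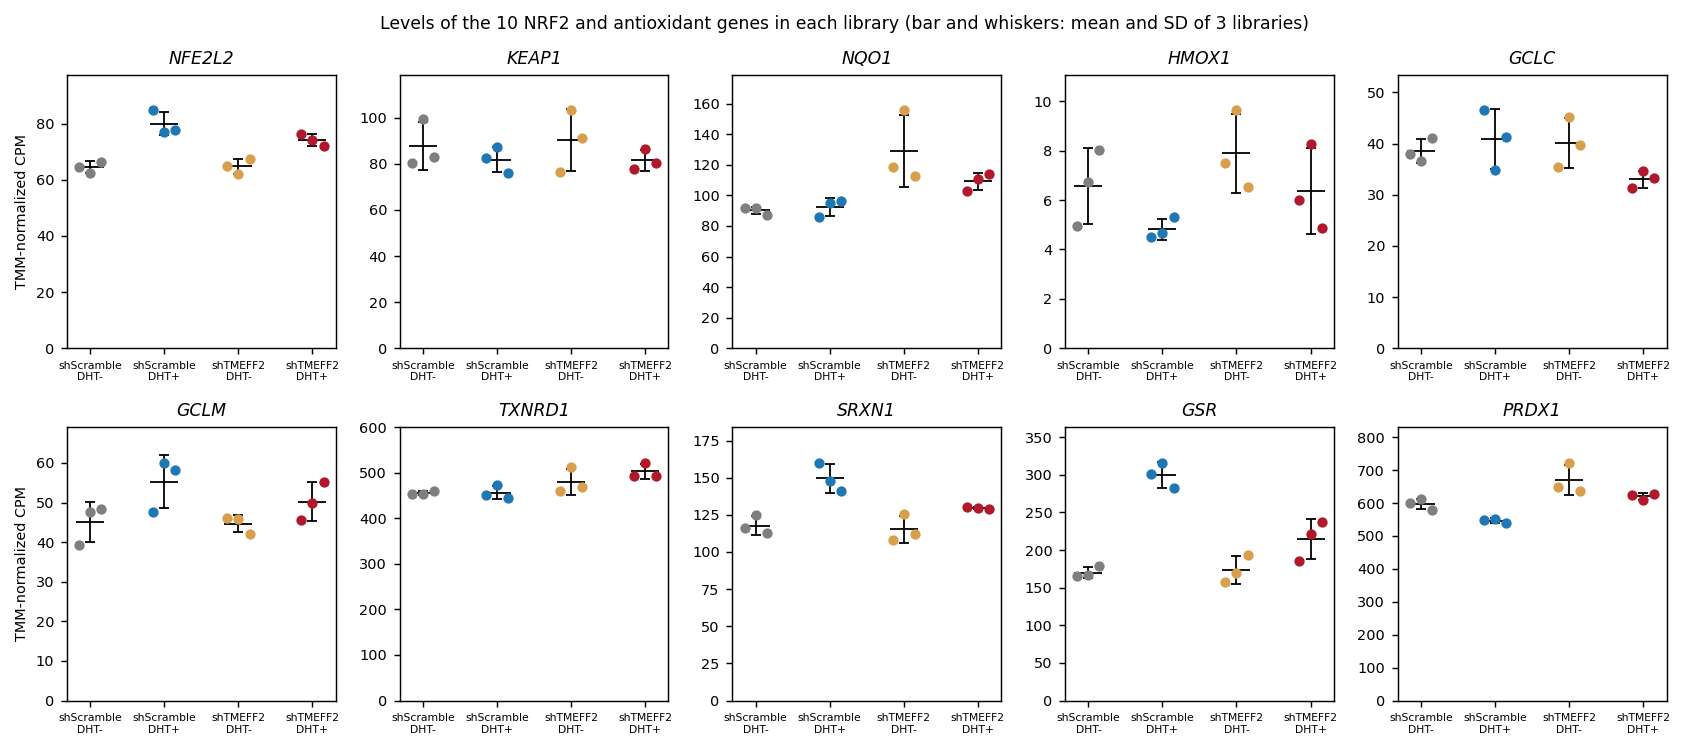
Level of each of the 10 genes in CPM by group, with 1 point per library (3 per group) and the group mean as a line. GSR stood at 282.3 to 316.3 CPM in the shScramble DHT+ libraries, above the other 9 libraries, and NQO1 had 1 high library, 155.7 CPM, in shTMEFF2 DHT-.

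NFE2L2 mRNA rose slightly with DHT in shScramble and KEAP1 mRNA passed no test. NFE2L2 (chr2:177218667-177392756, minus strand, GRCh38) was at 64.6, 62.4 and 66.5 CPM in shScramble DHT- and at 84.8, 77.2 and 77.9 CPM in shScramble DHT+. In shTMEFF2 it was at 65.1, 62.1 and 67.5 CPM without DHT and at 76.3, 74.2 and 72.2 CPM with DHT. Every DHT+ library of either line lay above every DHT- library. The rise in shScramble was 1.24-fold (log2 0.31, SE 0.062, adjusted p = 0.00259 in edgeR), under the 1.5-fold limit, and the value in shTMEFF2 was 1.14-fold (log2 0.19, SE 0.062), which missed the limit at an adjusted p of 0.0584. The difference between these responses was log2 -0.12 (SE 0.087) and did not pass the test (adjusted p = 0.568). Without DHT the lines were level, 64.5 ± 2.05 against 64.9 ± 2.68 CPM (SD, n = 3 each).

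KEAP1 (chr19:10486125-10503558, minus strand), the adaptor that marks NRF2 for breakdown, was at 80.3, 99.6 and 83.2 CPM in shScramble DHT- and 82.4, 87.2 and 76.0 CPM in shScramble DHT+. The shTMEFF2 libraries had 76.6, 103.3 and 91.4 CPM without DHT and 77.9, 86.5 and 80.3 CPM with DHT. All 4 groups overlapped, and the log2 differences of -0.15 to 0.05 did not pass the test in any comparison.

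Among the enzymes, glutathione reductase moved most. GSR, on the minus strand of chromosome 8, returns oxidized glutathione to its reduced form with NADPH. It was at 165.0, 166.2 and 179.1 CPM in shScramble DHT- and at 301.6, 316.3 and 282.3 CPM in shScramble DHT+. In shTMEFF2 it was at 158.2, 169.3 and 193.7 CPM without DHT and at 185.6, 221.3 and 236.9 CPM with DHT. The shScramble groups were far apart, while in shTMEFF2 the lowest DHT+ library lay under the highest DHT- library. GSR rose 1.76-fold with DHT in shScramble (log2 0.82, SE 0.095, adjusted p = 4.7e-05 in edgeR) and was the only member called there. In shTMEFF2 the value was 1.24-fold (log2 0.30, SE 0.095), which missed the limit at an adjusted p of 0.0523 in edgeR and passed it in 6 of 21 alternatives.

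The DHT response of GSR was smaller in shTMEFF2 by log2 -0.51 (SE 0.13, adjusted p = 0.0460 in edgeR). This difference was close to the limit: it lay between -0.58 and -0.42 in all 20 alternative fits but passed in only 7 of them. Among fits without 1 library it passed without shTMEFF2 DHT- repeat 1 (adjusted p = 0.0388) or shTMEFF2 DHT+ repeat 3 (0.0344) and missed the limit without any of the other 10 (0.0516 to 0.105). Without DHT, GSR was at 170.1 ± 7.81 CPM in shScramble and 173.7 ± 18.2 CPM in shTMEFF2 (SD, n = 3 each), a difference that did not pass the test (adjusted p = 0.939 in edgeR). With DHT, shTMEFF2 was 1.40-fold lower (log2 -0.48, SE 0.095, adjusted p = 0.00407 in edgeR), with no overlap between the groups and under the 1.5-fold limit.

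SRXN1 (chr20:646615-653200, minus strand), sulfiredoxin, which repairs over-oxidized peroxiredoxins, had a like but smaller pattern. It was at 116.1, 124.7 and 112.6 CPM in shScramble DHT- and at 160.2, 147.6 and 140.8 CPM in shScramble DHT+, so the groups did not overlap. The rise was 1.27-fold (log2 0.34, SE 0.071, adjusted p = 0.00311 in edgeR), under the 1.5-fold limit. In shTMEFF2 it was at 108.3, 125.4 and 112.3 CPM without DHT and at 130.4, 129.4 and 128.6 CPM with DHT, also without overlap, but the log2 value of 0.17 (SE 0.071) did not pass the test (adjusted p = 0.148 in edgeR). The difference of the responses, log2 -0.18 (SE 0.10), did not pass it either (adjusted p = 0.400 in edgeR).

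NQO1 (chr16:69706996-69726668, minus strand) reduces quinones and is a standard readout of NRF2. It was at 91.6, 91.6 and 87.4 CPM in shScramble DHT- and at 118.7, 155.7 and 112.6 CPM in shTMEFF2 DHT-. With DHT it was at 85.7, 95.3 and 96.6 CPM in shScramble and at 102.6, 110.9 and 113.7 CPM in shTMEFF2. All 6 shTMEFF2 libraries lay above all 6 shScramble libraries. Without DHT the level in shTMEFF2 was 1.43-fold higher (log2 0.52, SE 0.10, adjusted p = 0.0367 in edgeR), under the 1.5-fold limit, and with DHT the log2 value of 0.24 (SE 0.10) did not pass the test (adjusted p = 0.152). Repeat 2 of shTMEFF2 DHT- stood apart at 155.7 CPM: without it the log2 value was 0.36 with an adjusted p of 0.0910, and without repeat 3 it was 0.61 with an adjusted p of 0.0167, past the 1.5-fold limit. Of the 12 fits that left out 1 library, 4 kept the adjusted p within the limit: those without shScramble DHT+ repeat 1, shTMEFF2 DHT- repeat 3, shTMEFF2 DHT+ repeat 1 or shTMEFF2 DHT+ repeat 3.

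PRDX1 (chr1:45510914-45542732, minus strand), an abundant peroxiredoxin that breaks down hydrogen peroxide with thioredoxin, was slightly higher in shTMEFF2. It was at 600.8, 611.0 and 580.1 CPM in shScramble DHT- and 649.0, 723.2 and 638.0 CPM in shTMEFF2 DHT-. With DHT it was at 548.7, 552.5 and 539.4 CPM in shScramble and 624.6, 609.5 and 628.3 CPM in shTMEFF2. The lines did not overlap at either DHT level. With DHT the 1.14-fold higher level in shTMEFF2 (log2 0.18, SE 0.053) passed the test (adjusted p = 0.0348 in edgeR), and without DHT the log2 value of 0.17 (SE 0.053) did not (adjusted p = 0.182). With single libraries left out, the difference with DHT missed the limit 5 times, in the fits without any 1 of the 3 shScramble DHT+ repeats, or without shTMEFF2 DHT+ repeat 1 or 3 (adjusted p = 0.0540 to 0.0915 in edgeR).

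TXNRD1 (chr12:104215779-104350307, plus strand), thioredoxin reductase, was the steadiest. It was at 453.2, 454.0 and 459.8 CPM in shScramble DHT- and 451.2, 472.4 and 445.4 CPM in shScramble DHT+, a log2 difference of 0.00 (SE 0.054). In shTMEFF2 it was at 460.1, 512.1 and 467.7 CPM without DHT and 493.2, 522.4 and 492.8 CPM with DHT. The shTMEFF2 libraries lay above the shScramble libraries at each DHT level, yet the log2 values of 0.07 without and 0.14 (SE 0.054) with DHT did not pass the test (adjusted p = 0.609 and 0.0989 in edgeR).

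Neither subunit of glutamate-cysteine ligase, an enzyme of glutathione synthesis, passed a test in the main edgeR fit. Among alternative fits, GCLM with DHT in shScramble passed in 3 of 21 and GCLC between the lines with DHT in 1 of 21. GCLC (chr6:53497341-53616970, minus strand), the catalytic subunit of glutamate-cysteine ligase, was at 37.9, 36.5 and 41.0 CPM in shScramble DHT- and 46.5, 34.8 and 41.2 CPM in shScramble DHT+. In shTMEFF2 it was at 35.4, 45.2 and 39.7 CPM without DHT and 31.3, 34.7 and 33.2 CPM with DHT, without overlap (log2 -0.28, SE 0.11, adjusted p = 0.123 in edgeR). GCLM (chr1:93885199-93909456, minus strand), the modifier subunit, was at 39.3, 47.6 and 48.4 CPM in shScramble DHT- and 47.6, 60.1 and 58.1 CPM in shScramble DHT+ (log2 0.29, SE 0.11, adjusted p = 0.0622 in edgeR). Its shTMEFF2 values, 46.0, 45.9 and 42.1 CPM without DHT and 45.5, 49.8 and 55.2 CPM with DHT, overlapped.

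HMOX1 (chr22:35380361-35394214, plus strand), the heme oxygenase that NRF2 induces strongly under stress, was low. It was at 4.97, 6.73 and 8.02 CPM in shScramble DHT- and 4.49, 4.68 and 5.30 CPM in shScramble DHT+. In shTMEFF2 it was at 7.49, 9.64 and 6.54 CPM without DHT and 6.01, 8.26 and 4.85 CPM with DHT. Groups overlapped in every comparison, the standard errors of its log2 differences were 0.22 to 0.23 between groups, and no comparison passed the test. With 89 to 218 counts per library it was the least precise of the 10.

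**Figure D2:**
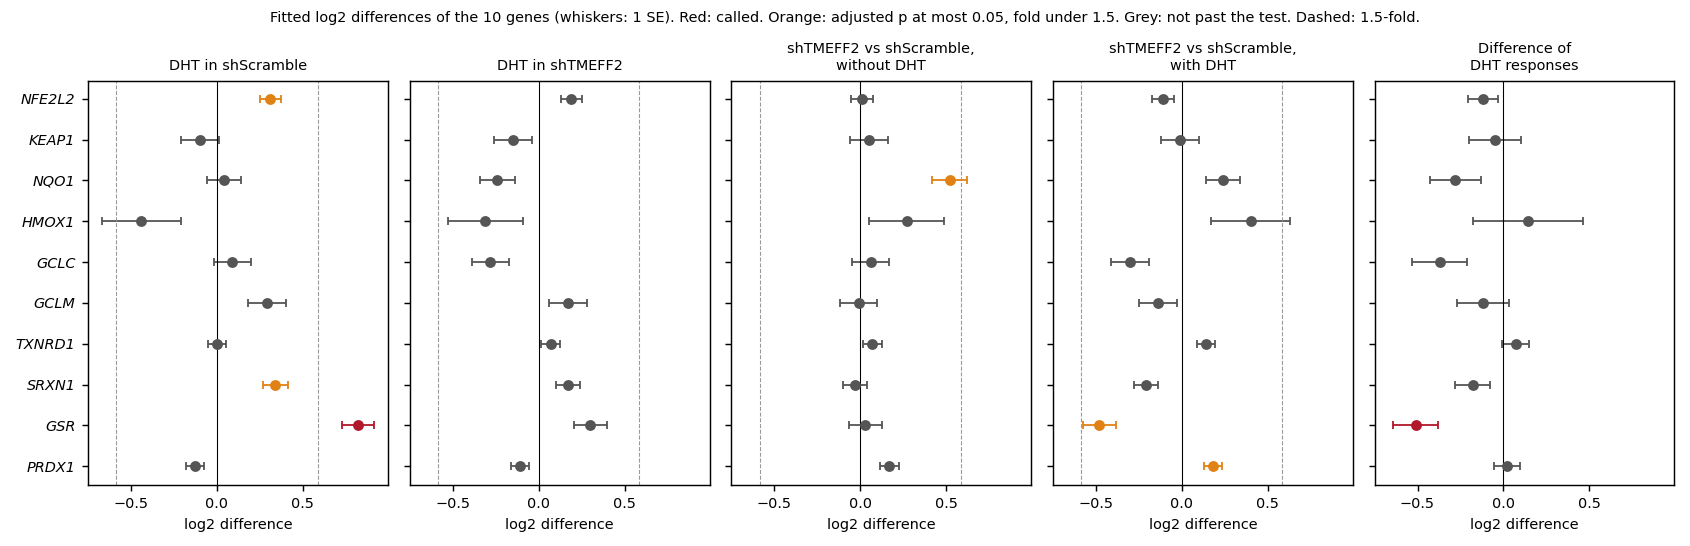
Log2 fold change of each of the 10 genes in each comparison, with the point at the edgeR estimate and a bar of 1 standard error on each side. GSR with DHT in shScramble, at 0.82, is farthest from 0, and the widest bars, 0.22 to 0.32, are those of HMOX1.

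Counted over the group, DHT in shScramble called 1 of 10 members higher (GSR) and 0 lower, against 5.44% of all genes called higher and 6.45% called lower. On the adjusted p alone 3 of 10 were higher, against 14.4% of all genes. Of the 10, 5 had an unadjusted p under 0.05 in edgeR, against 38.7% of all genes. The libraries with DHT lay above those without for 3 members, NFE2L2, SRXN1 and GSR, against 21.3% of all genes, and under them for 1, PRDX1, against 20.5%. The median log2 value of the members was 0.06 and that of all genes -0.01.

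In shTMEFF2, edgeR called 0 of 10 members with DHT, against 4.88% of all genes. DESeq2 and limma-voom also called 0, and 5 of 10 members had an unadjusted p under 0.05 in edgeR, against 27.2% of all genes. Without overlap, NFE2L2 and SRXN1 were higher with DHT, 2 of 10 against 15.6% of all genes, and GCLC and PRDX1 lower, 2 of 10 against 15.7%. The median was -0.02, as it was over all genes.

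Between the lines without DHT, edgeR, DESeq2 and limma-voom each called 0 of 10 members at the 1.5-fold limit, against 0.571% of all genes in edgeR. NQO1 was higher on the adjusted p alone, as were 0.623% of all genes, and 2 of 10 had an unadjusted p under 0.05 in edgeR, against 13.5%. NQO1, TXNRD1 and PRDX1 were higher without overlap, 3 of 10 against 9.35% of all genes. The median was 0.05, against -0.00 over all genes.

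With DHT, edgeR, DESeq2 and limma-voom again each called 0 of 10 members between the lines, against 6.77% of all genes in edgeR. On the adjusted p alone PRDX1 was higher in shTMEFF2, beside 6.93% of all genes, and GSR lower, beside 9.09%. In edgeR 6 of 10 had an unadjusted p under 0.05, against 29.2% of all genes. NQO1, TXNRD1 and PRDX1 were higher without overlap, 3 of 10 against 15.5% of all genes, and NFE2L2, GCLC, SRXN1 and GSR lower, 4 of 10 against 17.0%. The median was -0.06, against 0.00 over all genes. For the difference of the responses, 1 of 10 members was called lower (GSR) and 0 higher, against 3.29% and 1.65% of all genes. An unadjusted p under 0.05 in edgeR was found there for 2 of 10, against 17.5% of all genes. These comparisons share libraries, so their counts are not independent.

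Genes of the same pathway were counted from lists written by hand. Of 10 regulators and partners of NRF2, all tested, DHT in shScramble called 1 lower, against 6.45% of all genes. This was SQSTM1, the autophagy receptor p62 that draws KEAP1 away from NRF2, at 422.3, 548.3 and 546.7 CPM without and 287.6, 340.1 and 333.1 CPM with DHT (log2 -0.66, SE 0.12, adjusted p = 0.00142 in edgeR). None of the 10 was called in the other comparisons by edgeR. Over all genes, 4.88% were called with DHT in shTMEFF2. Between the lines 0.571% were called without and 6.77% with DHT, and for the difference of the responses 3.29% lower and 1.65% higher. The median of the 10 with DHT was -0.00 in shScramble and -0.12 in shTMEFF2.

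Of 28 other NRF2 target genes, 27 were tested. DHT in shScramble called 3 higher and 1 lower, against 5.44% and 6.45% of all genes. IDH1, which makes NADPH in the cytosol, was at 276.0, 295.0 and 272.5 CPM without and 719.1, 707.8 and 642.3 CPM with DHT (log2 1.29, SE 0.065, adjusted p = 7.3e-08 in edgeR). FECH, which inserts iron into heme, rose from a mean of 201.7 to 402.5 CPM (log2 1.00, SE 0.062) and ABCC1, an exporter of glutathione conjugates, from 116.8 to 213.2 CPM (log2 0.87, SE 0.083). EPHX1, an epoxide hydrolase, fell from 125.0 to 76.1 CPM (log2 -0.72, SE 0.12). In shTMEFF2, DHT called 0 of the 27 in edgeR, against 4.88% of all genes. On the adjusted p alone IDH1 (326.1 to 419.8 CPM) and FECH (221.4 to 271.9 CPM) rose there (adjusted p = 0.00370 and 0.00840 in edgeR).

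The DHT response was lower in shTMEFF2 for ABCC1 (difference -1.07 on the log2 scale, SE 0.12, adjusted p = 3.6e-04 in edgeR), IDH1 (-0.93, SE 0.091, 1.7e-04) and FECH (-0.70, SE 0.087, 7.6e-04). TALDO1 of the pentose phosphate pathway had a difference of -0.36 with an adjusted p of 0.0229. Thus 4 of 27 were called lower and 0 higher, against 3.29% and 1.65% of all genes. ABCC1 was at 129.4, 143.4 and 128.8 CPM in shTMEFF2 without DHT and at 101.0, 127.2 and 121.8 CPM with it. Its log2 value there, -0.20 (SE 0.082), was opposite in sign to that in shScramble and did not pass the test (adjusted p = 0.139 in edgeR). The list held genes of different tasks, NADPH supply, heme synthesis and export, and its median with DHT in shScramble was 0.13.

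Between the lines, EPHX1 was called higher in shTMEFF2 with DHT (76.1 to 136.5 CPM, log2 0.84, adjusted p = 4.6e-04 in edgeR), and ABCC1 (log2 -0.87) and IDH1 (-0.72) lower, 3 of 27 in either direction against 6.77% of all genes. Without DHT 0 of 27 was called in edgeR, against 0.571% of all genes.

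Of 20 other enzymes of glutathione, thioredoxin and peroxide metabolism, 19 were tested, and DHT in shScramble called 4 higher and 1 lower, against 5.44% and 6.45% of all genes. GLRX2, a mitochondrial glutaredoxin, was at 9.36, 8.78 and 9.10 CPM without and 21.9, 28.3 and 24.0 CPM with DHT (log2 1.45, SE 0.12, adjusted p = 3.9e-06 in edgeR). GGT1, which cleaves extracellular glutathione, rose from a mean of 14.7 to 26.2 CPM (log2 0.84, SE 0.15) and PRDX4, a peroxiredoxin of the endoplasmic reticulum, from 92.2 to 163.6 CPM (log2 0.83, SE 0.066). PRDX6 was also called. TXNIP, the inhibitor of thioredoxin, was at 551.7, 426.4 and 688.4 CPM without and 331.5, 256.5 and 458.6 CPM with DHT. It was called lower (log2 -0.67, SE 0.23, adjusted p = 0.0468 in edgeR) although the groups overlapped.

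In shTMEFF2, GLRX2 alone of the 19 was called with DHT (10.7 to 18.5 CPM, log2 0.79, SE 0.12, adjusted p = 0.00185 in edgeR), 1 of 19 against 4.88% of all genes. The difference of the responses was called for GGT1 (-0.91, SE 0.21, adjusted p = 0.0290 in edgeR) and GLRX2 (-0.66, SE 0.17, 0.0486), both smaller in shTMEFF2, 2 of 19 against 3.29% of all genes. GGT1 had 19.2, 25.5 and 18.7 CPM without and 17.0, 21.8 and 21.4 CPM with DHT in shTMEFF2. The median of the 19 was 0.00 with DHT in shScramble and -0.08 in shTMEFF2, against -0.01 and -0.02 for all genes.

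**Figure D3:**
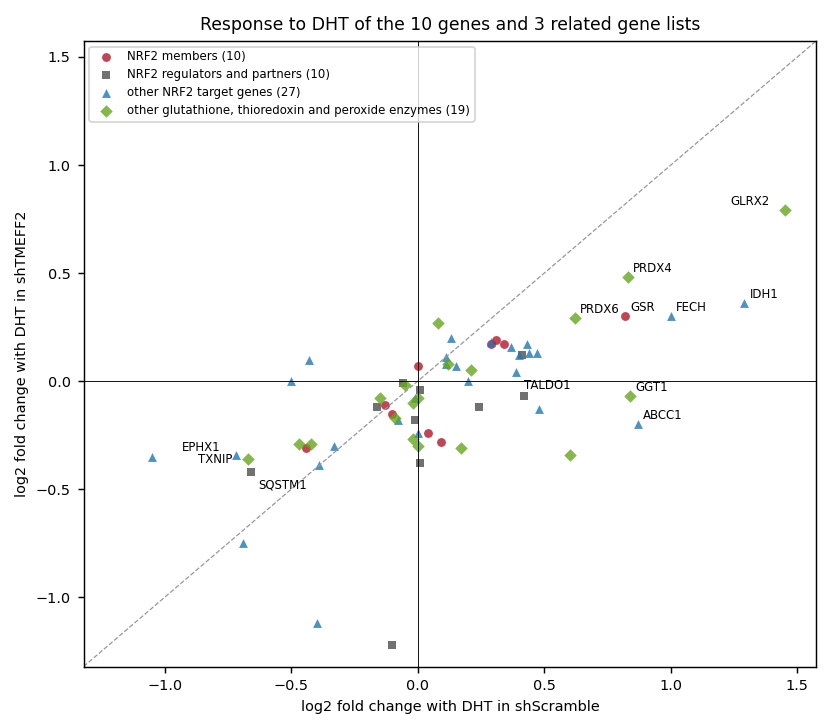
Log2 fold change with DHT in shScramble (x axis) and in shTMEFF2 (y axis), 1 point per gene, for the 10 genes and the 3 lists, with the line of equal response dashed. IDH1 (1.29 against 0.36), FECH (1.00 against 0.30), ABCC1 (0.87 against -0.20) and GSR (0.82 against 0.30) lie under the line.

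Across the 12 libraries, the genes whose log2 CPM was most like that of GSR, among 11154 compared, were NCAPD3, a condensin subunit (Pearson r = 0.988), ECI2, an enoyl-CoA isomerase of fatty acid breakdown (0.979), and PRKCH, a protein kinase C (0.976). NCAPD3 had group means of 91.5 and 246.2 CPM in shScramble and 102.9 and 150.8 CPM in shTMEFF2, without and with DHT. For NFE2L2 they were IARS, an isoleucyl-tRNA synthetase (r = 0.963), IFT57, a ciliary transport protein (0.958), and PREP, a peptidase (0.955). Among the members, GSR was most like NFE2L2 (r = 0.87) and SRXN1 (0.86) and ran opposite to PRDX1 (-0.71). All these correlations rest on the same 12 libraries in 4 groups, and many genes follow the same groups.

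Reads of some members may be shared with neighbours where their transcripts share sequence, because the sources used here do not state that strand was used in counting. In GENCODE v44, NFE2L2 overlaps HNRNPA3 and AGPS and PRDX1 overlaps MMACHC on the opposite strand, TXNRD1 overlaps EID3 and SRXN1 another protein-coding gene on the same strand, and PRDX1 has a pseudogene copy, PRDX1P1. These overlaps are of whole gene spans with introns, and overlap of exons was not tested. How far the levels of these members are affected is therefore not known, while GSR, GCLM and HMOX1 overlap no annotated gene.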

How the data were processed

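RNA-seq of 12 LNCaP libraries was used. The authors trimmed paired reads, quantified them with kallisto 0.42.3 on GRCh38 and deposited estimated counts per gene, scaled by transcript length, so that they are expected counts and need not be whole. The 24 columns, 2 per library, were taken as repeat runs, because their names differ by a suffix. The median per-gene chi-square was 1.13 to 1.26 between the 2 columns of a library and 2.24 to 2.86 between replicates. Both ranges lie above the median that counting error alone would give, so the columns of a library differed by more than counting error. The 2 columns of each library were summed and rounded.

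Depth was 19450866 to 22612046 counts per library. Counts were analysed in R 4.3.3 with edgeR 4.0.16 (TMM factors 0.956 to 1.04, filterByExpr with minimum count 10 and minimum total 15, 15419 of 34643 genes, common biological coefficient of variation 0.131), with all 12 libraries and 1 coefficient per group. Comparisons were DHT within each line, shTMEFF2 against shScramble at each DHT level, and the difference of the DHT responses. P-values came from the quasi-likelihood test with Benjamini-Hochberg adjustment. Alternatives were DESeq2 1.42.0, limma-voom (limma 3.58.1), library size only, no filter, a mean above 5 CPM, a replicate block, 1 column per library, only the groups compared, and each library left out. The steps were tested on simulated data.

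The text names all members, TMEFF2, KLK3 and FKBP5, up to 3 called genes per pathway list and comparison with the largest changes, and for NFE2L2 and GSR the 3 genes of highest Pearson r (log2 CPM, prior count 2, among genes of at least 5 CPM). Others, such as PRDX6, TALDO1, FTL and FTH1, were named after their values were seen, and other list genes are not reported here. Members and lists were chosen with earlier results of these data known. Gene positions are from GENCODE v44 and promoters from RefSeq (GRCh38.p14).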

Additional observations from a re-analysis of the deposited data

Results flagged for a closer look

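The response of GSR to DHT differed between the lines by the test of the difference itself. It was log2 -0.51 (SE 0.13, adjusted p = 0.0460 in edgeR), shTMEFF2 minus shScramble, with 1.76-fold in shScramble and 1.24-fold in shTMEFF2. In shScramble 3 of 3 DHT+ libraries lay above all DHT- libraries, and in shTMEFF2 the groups overlapped. Between the lines with DHT, the lower level of GSR in shTMEFF2 passed the adjusted p limit in 21 of 21 alternatives. Groups of 3 were not tested for single outlying libraries.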

How the results depend on the processing

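No value of the 10 genes that passed the test changed direction in any alternative. GSR with DHT in shScramble was called in all 21 alternatives (log2 0.75 to 0.87). NFE2L2 and SRXN1 with DHT in shScramble stayed within the adjusted p limit in 21 of 21. The number of members called lower for the difference of DHT responses was 1, and 0 with library size only (GSR adjusted p = 0.0862 in edgeR), 0 with the first column only (0.0606), 0 with the second column only (0.0827) and 0 to 1 with 1 library left out. The number called higher in shTMEFF2 without DHT was 0, and 0 to 1 with 1 library left out (NQO1, without shTMEFF2 DHT- repeat 3). The cause was not tested. Fits with 1 column or without 1 library use fewer counts, while that with library size only uses all of them. NQO1 without DHT passed the adjusted p limit in 11 of 21 alternatives, PRDX1 with DHT in 13 of 21 and GSR with DHT in shTMEFF2 in 6 of 21. Counts over all genes moved more. Between the lines without DHT, 46 genes were called higher and 42 lower, against 14 to 73 and 17 to 44 with 1 library left out and 97 and 83 with DESeq2. For the difference of the responses, 254 were called higher and 507 lower, against 127 (without shScramble DHT- repeat 2) to 294 and 329 (without shScramble DHT+ repeat 1) to 471 with 1 library left out, and 479 and 726 with DESeq2. The 995 called lower with DHT in shScramble were 653 with a mean above 5 CPM, and the 247 in shTMEFF2 were 103 without shTMEFF2 DHT+ repeat 3 and 156 without shTMEFF2 DHT- repeat 2.

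Replicate numbers were shared by the groups, but nothing in the labels pairs the libraries. Same-numbered libraries deviated together at r over 0.1 in 15 of 18 pairs (-0.0478 to 0.303 over 11155 genes). With the replicate block, the members called were the same in number, 1 for DHT in shScramble and 1 for the difference (GSR, log2 -0.52, adjusted p = 0.0195 in edgeR), while all genes called higher for the difference rose from 254 to 432. On the adjusted p alone, DESeq2 and the block each also passed GCLM with DHT in shScramble, NFE2L2 and GSR with DHT in shTMEFF2, and SRXN1 and TXNRD1 between the lines with DHT. The low counts of HMOX1, 89 to 218 per library, limit it to large changes.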

Other observations

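The ferritin genes, which store iron and are NRF2 targets, were picked out after their values were seen. FTL was at 283.5, 309.9 and 267.8 CPM in shScramble DHT- and 224.5, 207.2 and 225.6 CPM in shScramble DHT+, and at 272.1, 287.9 and 273.7 CPM in shTMEFF2 DHT- and 231.2, 215.8 and 190.1 CPM in shTMEFF2 DHT+. It fell with DHT in both lines, by 1.31-fold each (log2 -0.39, adjusted p = 0.00244 and 0.00660 in edgeR), under the 1.5-fold limit. FTH1 fell from a mean of 1090.1 to 866.1 CPM in shScramble and from 1290.9 to 1047.6 CPM in shTMEFF2 (adjusted p = 0.00382 and 0.0149 in edgeR). In both genes every DHT+ library of a line lay under its DHT- libraries.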
